A study of Mus musculus with 12 samples.

Results

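Smooth muscle and actomyosin contractile genes were followed across 4 populations of cancer-associated fibroblasts (CAFs) sorted from mouse mammary tumours. The module was chosen by name and holds 41 of the 55487 genes in the deposited table. Each member matched 1 gene identifier, and all 41 passed the filter on low values (1 CPM or more in 3 or more libraries, where CPM are read counts scaled to a common library total). The members were split by the known isoform into 22 muscle-type genes, whose product marks smooth muscle or its contractile state, and 19 general actomyosin genes used by most cells. The split was made with earlier results of these data known, so the contrast between the classes is no independent test. Genes that make both muscle and non-muscle splice forms fall in both classes.

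The tumours came from 3 untreated FVB mice carrying the MMTV-PyMT transgene, which drives the polyoma middle T oncogene from a mammary-active viral promoter, taken at 10 weeks of age. From each mouse, viable PDGFRb+ cells lacking CD45, CD31 and EPCAM were sorted into 4 populations. The vcaf population was Ly6C-, CD146+ and PDGFRa-. The m2cafpos population was Ly6C-, CD146-, PDGFRa+ and NCAM+, and m2cafneg differed from it in being NCAM-. The icaf population was Ly6C+. Each mouse (numbered 27, 30 and 31) gave 1 bulk RNA library of each population, so there were 12 libraries and 3 replicates a population. Values in sets of 3 below follow the order of mice 27, 30 and 31.

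In smooth muscle and pericytes, contraction is driven by myosin heads pulling on actin filaments. Calcium entry activates calmodulin and then myosin light chain kinase, which phosphorylates the regulatory light chain, and a phosphatase with a myosin-targeting subunit reverses this. Smooth muscle cells carry their own isoforms of actin, myosin heavy chain, calponin and tropomyosin, while fibroblasts build stress fibres mainly from the general isoforms. Serum response factor (SRF), with myocardin or the myocardin-related factors, switches on many of these genes through a short DNA element, the CArG box. Alpha smooth muscle actin, encoded by Acta2, is the customary marker of contractile fibroblasts (myofibroblasts) and also of mural cells, the pericytes and smooth muscle cells of vessel walls.

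The sequences below show the CArG boxes found near the starts of 4 members that differed between the populations. Each is a RefSeq promoter window of 300 bases on GRCm38.p6, from 250 bases before to 50 bases after the annotated start, read along the gene's strand, with CArG boxes in capitals. Acta2 lies on the minus strand (window chr19:34255324-34255623) and encodes alpha smooth muscle actin. Myl9 lies on the plus strand (window chr2:156775214-156775513) and encodes the regulatory light chain typical of smooth muscle. Cnn2 lies on the plus strand (window chr10:79988350-79988649) and encodes the calponin of non-muscle cells. Srf lies on the minus strand (window chr17:46556113-46556412) and encodes the factor that binds the box.
Acta2: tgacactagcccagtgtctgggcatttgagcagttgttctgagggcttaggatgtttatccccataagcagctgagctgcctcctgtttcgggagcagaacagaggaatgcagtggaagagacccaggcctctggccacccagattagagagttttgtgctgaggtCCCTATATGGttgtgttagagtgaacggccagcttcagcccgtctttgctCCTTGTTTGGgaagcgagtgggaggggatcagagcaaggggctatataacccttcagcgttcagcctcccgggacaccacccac
Myl9: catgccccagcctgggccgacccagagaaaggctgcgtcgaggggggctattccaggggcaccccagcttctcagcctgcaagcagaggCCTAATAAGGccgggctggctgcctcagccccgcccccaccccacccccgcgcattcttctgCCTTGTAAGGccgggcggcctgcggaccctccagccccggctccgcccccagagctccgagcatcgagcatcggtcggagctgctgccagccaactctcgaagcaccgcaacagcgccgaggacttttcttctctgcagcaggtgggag
Cnn2: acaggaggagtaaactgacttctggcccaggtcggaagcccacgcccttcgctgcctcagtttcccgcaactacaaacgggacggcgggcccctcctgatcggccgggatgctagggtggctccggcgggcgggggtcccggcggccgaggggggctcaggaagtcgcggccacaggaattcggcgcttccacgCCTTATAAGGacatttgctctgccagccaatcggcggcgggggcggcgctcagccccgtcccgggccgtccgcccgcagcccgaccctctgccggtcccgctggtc
Srf: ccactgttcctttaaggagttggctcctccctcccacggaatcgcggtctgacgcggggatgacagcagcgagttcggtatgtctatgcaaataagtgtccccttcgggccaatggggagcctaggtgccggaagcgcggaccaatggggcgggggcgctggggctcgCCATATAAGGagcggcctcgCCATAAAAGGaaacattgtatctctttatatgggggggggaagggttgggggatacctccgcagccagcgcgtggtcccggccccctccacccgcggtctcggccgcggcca

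A CArG box was searched on both strands in its exact form, 2 C, then 6 bases that are A or T, then 2 G, and in a relaxed form with 1 G or C allowed among the 6. The Acta2 window held 2 relaxed boxes, 84 and 34 bases before the start. The Myl9 window held an exact box 161 bases and a relaxed box 99 bases before the start. The Cnn2 window held 1 exact box, 56 bases before the start, and the Srf window held 2, at 82 and 62 bases. A window was found for 17 of the 22 muscle-type genes and for all 19 general genes. Actg2, Tagln, Myh11, Nexn and Myocd had no window and were not searched, so the counts do not rank the 2 classes. The exact box was present in 1 of the 17 muscle-type genes (Myl9) and in 4 of the 19 general genes (Cnn2, Myl6, Vcl and Srf), against 1.81% of 27025 genes with a window. Either form was present in 4 muscle-type genes (Acta2, Myl9, Synm and Pdlim3) and in 6 general genes, against 11.3% of all genes. The MCAT element (CATTCC), the binding motif of TEAD factors, was present in 8 muscle-type and 6 general genes, against 16.6% of all genes. These letters describe a 300-base window only, and neither binding nor use of any box was measured.

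The libraries held 43898839 to 55363203 reads assigned to genes, so that 1 read was worth 0.0181 to 0.0228 CPM. Transcripts of cells that the gates should have removed were present in every library and in unequal amounts. The summed CPM of 16 luminal epithelial markers was 7980 to 16167 in vcaf, against 672 to 2904 in m2cafpos, 5650 to 12238 in m2cafneg and 1048 to 3043 in icaf. The sum of 11 myoepithelial markers, which matter here because myoepithelial cells are contractile, was 333 to 606 in vcaf, against 32.7 to 108 in m2cafpos, 235 to 473 in m2cafneg and 35.6 to 80.4 in icaf. The 10 pericyte markers summed to 36010 to 57773 CPM in vcaf, against 155 to 221 in m2cafpos, 209 to 582 in m2cafneg and 226 to 423 in icaf. The 6 fibroblast markers summed to 9959 to 12429 CPM in vcaf, against 145842 to 154547 in m2cafpos, 73506 to 92819 in m2cafneg and 69848 to 74416 in icaf. Endothelial markers (12) summed to 906 to 1186 CPM in vcaf and 68.8 to 607 over the other libraries, and macrophage markers (12) to 560 to 1347 CPM in vcaf and 93.7 to 976 over the others. The m2cafneg library of mouse 31 stood apart: its 16 skeletal and cardiac muscle markers summed to 153 CPM (111.8 CPM of it Acta1, skeletal muscle actin), against 13.6 CPM or less in the other 11 libraries. That library also held 357 CPM of Rgs5, a pericyte marker, against 43.1 and 70.3 CPM in the other m2cafneg libraries. In bulk libraries, fewer cells of a type and less RNA per cell cannot be told apart.

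The vcaf population was first set against the mean of the other 3 populations. All 22 muscle-type genes were higher in vcaf. Their log2 fold changes ran from 0.50 to 7.27 with a median of 3.45, and 20 were at least 1. Among the 19 general genes, 16 were higher, 2 were lower (Myh10 and Vim) and 1 (Tagln2) did not pass the test, with a median of 1.05. The test was limma on log2(CPM + 1), with p-values adjusted over all 15456 genes kept and called at 0.05; a fold change on this scale understates the change of low genes. The counts have to be read against a high background, since 53.3% of all genes tested were called higher and 14.2% lower in vcaf, with a median of 0.38. Under median-of-ratios scaling, which shifted the median of all genes by -0.39, 23.5% of all genes were called higher and 24.7% lower, while 21 muscle-type genes were still called higher and the general genes split into 12 higher and 3 lower. The luminal epithelial markers were all called higher in vcaf as well (16 of 16). So were 10 of 10 myoepithelial, 9 of 12 endothelial and 10 of 11 macrophage markers tested. With the luminal epithelial level in the model, 21 muscle-type and 13 general genes were called higher, against 20.3% of all genes. With the myoepithelial level in its place the counts were 20 and 12, against 19.7%. Leaving out each library in turn kept the muscle-type count at 22. In 21 of the 22 muscle-type genes every vcaf library lay above all 9 other libraries, and this also held for 12 general genes, against 25.8% of all genes tested; in 1 general gene, Myh10, every vcaf library lay below, against 8.09%.

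**Figure D1:**
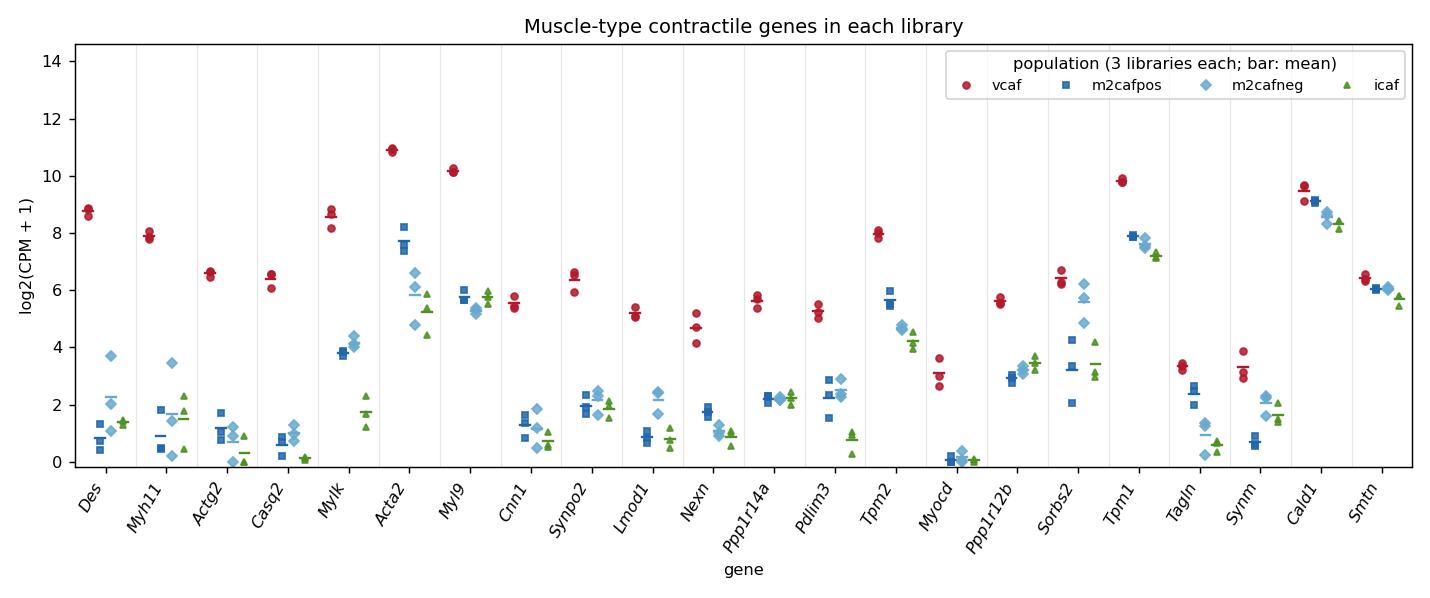
Log2(CPM + 1) of the 22 muscle-type genes (x axis, ordered by the vcaf difference) in each of the 12 libraries; points are libraries, short bars are means of 3 libraries, colours and shapes mark the population. The vcaf libraries lie above all others for every gene except Cald1, where the vcaf library of mouse 31 falls among the m2cafpos libraries.

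Of the 2 smooth muscle actins, Acta2 had 1941, 1833 and 1988 CPM in vcaf, against 297, 165 and 192 in m2cafpos, 69.0, 26.6 and 95.1 in m2cafneg, and 40.5, 20.7 and 57.7 in icaf. The vcaf libraries held far more than any other and the m2cafpos libraries came next, above all m2cafneg and icaf libraries, whose ranges overlapped. Acta2 was 4.64 ± 0.35 (log2 fold change ± SE) higher in vcaf than in the mean of the others (limma, adjusted p = 2.8e-07). Actg2, the gamma actin typical of visceral smooth muscle, had 87.6, 98.9 and 101 CPM in vcaf, against 2.28, 1.08 and 0.683 in m2cafpos, 0, 0.877 and 1.29 in m2cafneg, and 0, 0 and 0.871 in icaf. A count of 0 allows up to 3 reads, or 0.0653, 0.0570 and 0.0590 CPM in those libraries (counting error only). Its mean in vcaf was 122-fold the mean of the other 9 libraries, and the log2 fold change was 5.87 ± 0.28 (limma, adjusted p = 5.07e-09). Actin genes are near-identical in their coding parts, so reads could be shared among Acta2, Actg2, Actb and Actg1, depending on the counting rules, on which the sources used here are silent.

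Tagln encodes transgelin (SM22 alpha), an actin-bundling protein used as an early smooth muscle marker. It was low in every population, at 8.29, 9.19 and 9.98 CPM in vcaf, against 5.26, 2.97 and 4.56 in m2cafpos, 1.35, 0.180 and 1.56 in m2cafneg, and 0.646, 0.256 and 0.574 in icaf. The order of the populations was that of Acta2, with vcaf above and m2cafpos next. Tagln was 2.05 ± 0.23 higher in vcaf (limma, adjusted p = 1.09e-05). In the GENCODE M21 annotation, 1349 of the 1988 exonic bases of Tagln (67.86%; chr9:45929619-45936058, minus strand, GRCm38) lie under exons of opposite-strand genes, 62.42% under Gm48529 and 5.433% under Pcsk7. The sources used here do not say how overlaps were counted or whether strand was used, so the Tagln level is uncertain, and the part of the overlap in it was not tested. The non-muscle paralogue Tagln2, with no shared exonic base, had 533, 456 and 495 CPM in vcaf, against 393, 379 and 337 in m2cafpos, 409, 407 and 349 in m2cafneg, and 832, 569 and 625 in icaf. Its difference in vcaf was 0.11 ± 0.11 (limma, adjusted p = 0.396), and icaf libraries were the highest.

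The motor itself showed a change of isoform. Myh11, the smooth muscle myosin heavy chain, had 230, 271 and 222 CPM in vcaf, against 0.379, 0.371 and 2.48 in m2cafpos, 0.152, 1.66 and 9.82 in m2cafneg, and 0.361, 2.38 and 3.86 in icaf. No other library came near the vcaf level, and the highest of them was the m2cafneg library of mouse 31. Myh11 was 6.55 ± 0.56 higher in vcaf (limma, adjusted p = 1.02e-06). Myh9, the heavy chain of non-muscle myosin IIA, had 909, 796 and 669 CPM in vcaf, against 432, 388 and 395 in m2cafpos, 328, 328 and 353 in m2cafneg, and 266, 218 and 250 in icaf, a difference of 1.29 ± 0.10 (limma, adjusted p = 3.92e-07). Myh10, the heavy chain of non-muscle myosin IIB, went the other way, with 14.9, 11.2 and 11.03 CPM in vcaf, against 64.1, 48.8 and 59.9 in m2cafpos, 41.6, 44.3 and 37.6 in m2cafneg, and 49.97, 54.3 and 47.6 in icaf. All vcaf libraries lay below all others, by 1.92 ± 0.11 on the log2 scale (a log2 fold change of -1.92; limma, adjusted p = 3.48e-08).

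The light chains followed the same division. Myl9, the smooth muscle regulatory light chain, had 1233, 1130 and 1118 CPM in vcaf, against 62.7, 49.7 and 49.2 in m2cafpos, 38.6, 35.0 and 40.8 in m2cafneg, and 44.6, 53.1 and 62.0 in icaf. The lowest vcaf library was 17.8-fold above the highest other library, and the difference was 4.58 ± 0.11 (limma, adjusted p = 3.34e-11). Myl12a, the non-muscle regulatory light chain, averaged 221 ± 29.6 CPM in vcaf, against 189 ± 5.37 in m2cafpos, 171 ± 26.0 in m2cafneg and 122 ± 10.95 in icaf (SD, n = 3 each). Its difference was 0.48 ± 0.11 (limma, adjusted p = 0.0017), the vcaf and other libraries overlapped, and the call was lost under median-of-ratios scaling (0.06). Myl12a has a near-identical neighbour, Myl12b, with which it shares 13.75% of its exonic bases, so its reads may be split. Myl6, the essential light chain of both muscle and non-muscle myosin, was 0.76 ± 0.12 higher in vcaf.

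Genes that switch the motor on and off were also higher in vcaf. Mylk, the myosin light chain kinase, had 408, 452 and 291 CPM in vcaf, against 13.5, 11.99 and 13.3 in m2cafpos, 16.2, 15.1 and 19.9 in m2cafneg, and 1.33, 2.16 and 3.88 in icaf. Its 3 lower populations were not alike, since every icaf library lay below all m2caf libraries; the difference in vcaf was 5.33 ± 0.19 (limma, adjusted p = 5.48e-10). Ppp1r12b, a myosin phosphatase targeting subunit enriched in muscle, had 46.3, 53.6 and 44.8 CPM in vcaf, against 5.82, 6.60 and 7.27 in m2cafpos, 7.42, 9.20 and 8.34 in m2cafneg, and 9.88, 8.29 and 11.9 in icaf. It was 2.43 ± 0.13 higher in vcaf (limma, adjusted p = 1.15e-08). Ppp1r14a, which encodes CPI-17, a phosphatase inhibitor found mainly in smooth muscle, had 51.3, 55.5 and 40.7 CPM in vcaf, against 3.90, 3.11 and 3.87 in m2cafpos, 3.83, 3.51 and 3.46 in m2cafneg, and 2.93, 3.72 and 4.42 in icaf. The other 3 populations overlapped, and the vcaf difference was 3.43 ± 0.14 (limma, adjusted p = 1.66e-09). The ubiquitous targeting subunit Ppp1r12a had 314, 343 and 205 CPM in vcaf, against 63.1 to 96.2 CPM in the other 9 libraries, a difference of 1.87 ± 0.13 (limma, adjusted p = 2.02e-07).

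Thin-filament regulators differed from one to the next. Cnn1, the smooth muscle calponin, had 55.1, 42.7 and 40.6 CPM in vcaf, against 2.08, 1.54 and 0.797 in m2cafpos, 1.24, 0.405 and 2.55 in m2cafneg, and 0.437, 0.491 and 1.03 in icaf, a difference of 4.50 ± 0.26 (limma, adjusted p = 2.26e-08). Cnn2 had 646, 599 and 497 CPM in vcaf, against 364, 242 and 287 in m2cafpos, 196, 116 and 147 in m2cafneg, and 158, 104 and 125 in icaf, a difference of 1.69 ± 0.17 (limma, adjusted p = 4.49e-06). Cnn2 thus kept the order of Acta2, while Cnn3, the acidic calponin, averaged 530 ± 46.9 CPM in vcaf, against 578 ± 39.1 in m2cafpos, 434 ± 61.2 in m2cafneg and 326 ± 49.4 in icaf (SD, n = 3 each). The vcaf difference of Cnn3 was 0.29 ± 0.11 (limma, adjusted p = 0.0341), was lost on leaving out any of 7 of the 12 libraries, and was -0.13 under median-of-ratios scaling.

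Tropomyosins line the actin filament. Tpm1 had 962, 889 and 874 CPM in vcaf, against 231, 245 and 231 in m2cafpos, 187, 178 and 228 in m2cafneg, and 141, 139 and 161 in icaf. Tpm2 had 274, 257 and 227 CPM in vcaf, against 62.0, 42.6 and 44.6 in m2cafpos, 26.4, 23.4 and 23.7 in m2cafneg, and 22.2, 14.3 and 16.7 in icaf. In both, the vcaf libraries formed a separate upper group, by 2.25 ± 0.09 for Tpm1 and 3.14 ± 0.14 for Tpm2 (limma, adjusted p = 1.01e-09 and 2.74e-09). Tpm4, a non-muscle tropomyosin, had 1009, 854 and 879 CPM in vcaf, against 361 to 577 CPM in the other libraries, a difference of 1.05 ± 0.12 (limma, adjusted p = 1.73e-05). Tpm3 differed by 0.23 ± 0.09 (limma, adjusted p = 0.0392), was lost on leaving out any of 9 libraries, and was -0.18 under median-of-ratios scaling. Tpm1, Tpm2, Tpm3, Cald1, Smtn, Mylk, Myl6, Actn1 and Vcl each make muscle and non-muscle splice forms, which a value per gene cannot separate.

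Lmod1, a leiomodin that nucleates actin filaments in smooth muscle, had 33.4, 41.3 and 32.4 CPM in vcaf, against 0.578, 0.779 and 1.12 in m2cafpos, 4.38, 2.20 and 4.27 in m2cafneg, and 0.684, 0.393 and 1.25 in icaf (log2 fold change 3.91 ± 0.20; limma, adjusted p = 8.95e-09). Outside vcaf, the m2cafneg libraries were the highest and did not overlap the rest. Cald1, caldesmon, had 802, 822 and 554 CPM in vcaf, against 567, 533 and 553 in m2cafpos, 424, 315 and 392 in m2cafneg, and 339, 278 and 344 in icaf. Its vcaf library of mouse 31 lay within the m2cafpos range, and the difference from the mean of the others was 0.82 ± 0.13 (limma, adjusted p = 0.000191). Smtn, smoothelin, had 93.1, 79.4 and 81.9 CPM in vcaf, against 64.7, 62.8 and 65.8 in m2cafpos, 68.7, 64.5 and 63.4 in m2cafneg, and 54.3, 42.7 and 54.3 in icaf. Smtn had the smallest muscle-type difference, 0.50 ± 0.09 (limma, adjusted p = 0.000435), and under median-of-ratios scaling it was 0.08 and no longer past the test.

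The intermediate filaments of muscle, desmin and synemin, differed by unlike amounts. Des, desmin, had 453, 472 and 383 CPM in vcaf, against 0.325, 0.649 and 1.48 in m2cafpos, 3.09, 1.12 and 12.1 in m2cafneg, and 1.67, 1.45 and 1.76 in icaf. Its vcaf mean was 166-fold that of the other libraries, in which the m2cafneg library of mouse 31 again stood highest, and the log2 fold change of 7.27 ± 0.39 (limma, adjusted p = 1.54e-08) was the largest of the 41. Synm, synemin, a partner of desmin, had 6.67, 13.8 and 7.86 CPM in vcaf, against 0.452, 0.871 and 0.547 in m2cafpos, 2.05, 3.94 and 3.67 in m2cafneg, and 1.82, 3.11 and 1.64 in icaf (1.86 ± 0.23; limma, adjusted p = 2.42e-05). Here m2cafpos was the lowest population, below every m2cafneg and icaf library. Vim, vimentin, the filament of mesenchymal cells, had 1506, 1481 and 1474 CPM in vcaf, against 2055, 1850 and 1763 in m2cafpos, 1470, 1454 and 1081 in m2cafneg, and 3267, 2292 and 2705 in icaf. It was lower in vcaf, with a log2 fold change of -0.35 ± 0.13 (limma, adjusted p = 0.0329), above the m2cafneg libraries but below those of m2cafpos and icaf, and the call was lost on leaving out any of 5 libraries (all 3 vcaf, m2cafpos of mouse 27 and m2cafneg of mouse 27).

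Dense bodies and Z-discs anchor the filaments. Synpo2, myopodin, had 98.1, 90.6 and 60.7 CPM in vcaf, against 2.17, 3.99 and 2.73 in m2cafpos, 3.96, 2.09 and 4.62 in m2cafneg, and 3.30, 1.89 and 2.85 in icaf (4.38 ± 0.22; limma, adjusted p = 8.89e-09). Nexn, nexilin, had 25.0, 36.0 and 17.0 CPM in vcaf, against 2.31, 2.78 and 1.96 in m2cafpos, 1.02, 0.877 and 1.42 in m2cafneg, and 1.10, 0.472 and 0.950 in icaf (3.47 ± 0.21; limma, adjusted p = 3.39e-08). Both had a separate upper group in vcaf, within which mouse 31 was lowest.
Pdlim3, a PDZ and LIM protein that binds alpha-actinin, had 31.7, 45.1 and 36.3 CPM in vcaf, against 1.90, 4.10 and 6.20 in m2cafpos, 3.79, 4.14 and 6.42 in m2cafneg, and 0.209, 1.06 and 0.911 in icaf (3.43 ± 0.26; limma, adjusted p = 3.74e-07). As with Mylk, both m2caf populations stood between vcaf and icaf. Sorbs2, a vinculin-binding adaptor, had 74.1, 77.6 and 103 CPM in vcaf, against 9.19, 3.11 and 18.3 in m2cafpos, 51.8, 27.7 and 72.6 in m2cafneg, and 6.78, 7.82 and 17.1 in icaf. The vcaf and m2cafneg libraries almost met, and Sorbs2 was high in the same populations as the luminal epithelial markers. Its difference of 2.33 ± 0.41 (limma, adjusted p = 0.000368) became 0.30 (adjusted p = 0.459) with the level of those markers in the model. That level (mean log2) was 7.01 to 8.42 in vcaf and m2cafneg, against 4.13 to 5.92 in m2cafpos and icaf. The model thus separates the marker level from the populations poorly, and the source of the Sorbs2 reads was not tested.

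Casq2, calsequestrin 2, the calcium-storing protein of the sarcoplasmic reticulum of heart and smooth muscle, had 93.9, 66.1 and 94.7 CPM in vcaf, against 0.596, 0.148 and 0.820 in m2cafpos, 0.653, 1.42 and 0.969 in m2cafneg, and 0.0950, 0.0393 and 0.119 in icaf. All 9 other libraries were below 2 CPM, and the vcaf difference was 5.84 ± 0.18 (limma, adjusted p = 1.75e-10). Myocd, myocardin, the smooth muscle coactivator of SRF, had 7.05, 11.4 and 5.27 CPM in vcaf, against 0, 0.148 and 0 in m2cafpos, 0.0435, 0 and 0.304 in m2cafneg, and 0.0760, 0 and 0.0396 in icaf. In 6 of the 9 other libraries it was under the 3 reads that a count of 0 allows (0.0542 to 0.0683 CPM a library, counting error only). The fitted log2 fold change of 3.01 ± 0.18 (limma, adjusted p = 4.01e-08) depends on the pseudocount at such levels. Srf itself had 21.0, 16.0 and 16.7 CPM in vcaf, against 7.93, 7.12 and 8.93 in m2cafpos, 7.62, 6.57 and 10.5 in m2cafneg, and 6.99, 6.84 and 8.65 in icaf (1.09 ± 0.15; limma, adjusted p = 6.52e-05).

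Among the other general members, those that link actin to adhesions and to each other formed the upper group. Vcl, vinculin, had 117, 81.5 and 109 CPM in vcaf, against 21.6 to 30.6 CPM in the other 9 libraries (1.93 ± 0.13; limma, adjusted p = 1.36e-07), with 25.52% of its exonic bases under the opposite-strand gene Ap3m1. Tln1, talin 1, which couples integrins to vinculin, had 313, 294 and 251 CPM in vcaf, against 110 to 149 CPM elsewhere (1.20 ± 0.09; limma, adjusted p = 2.08e-07). Flna, filamin A, an actin cross-linker, had 873, 761 and 786 CPM in vcaf, against 243 to 415 CPM elsewhere (1.39 ± 0.12; limma, adjusted p = 1.33e-06). In each of these 3 genes the other populations lay close together.
Actn1, alpha-actinin 1, had 177, 186 and 116 CPM in vcaf, against 79.3, 66.4 and 73.0 in m2cafpos, 43.7, 26.7 and 53.5 in m2cafneg, and 37.9, 21.2 and 34.3 in icaf (1.79 ± 0.22; limma, adjusted p = 2.16e-05). Actn4, alpha-actinin 4, had 2359, 2070 and 2685 CPM in vcaf, against 570, 383 and 629 in m2cafpos, 1031, 742 and 1275 in m2cafneg, and 514, 461 and 598 in icaf (1.87 ± 0.18; limma, adjusted p = 2.71e-06). The isoforms thus differed in their order outside vcaf: Actn1 was highest in m2cafpos, and Actn4, like Sorbs2 and the luminal epithelial markers, in m2cafneg. The remaining members, the LIM proteins Pdlim5 and Pdlim7, were 0.89 ± 0.11 and 0.59 ± 0.10 higher in vcaf (limma, adjusted p = 2.41e-05 and 0.000377), and Pdlim7 was no longer past the test under median-of-ratios scaling (0.17).

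**Figure D2:**
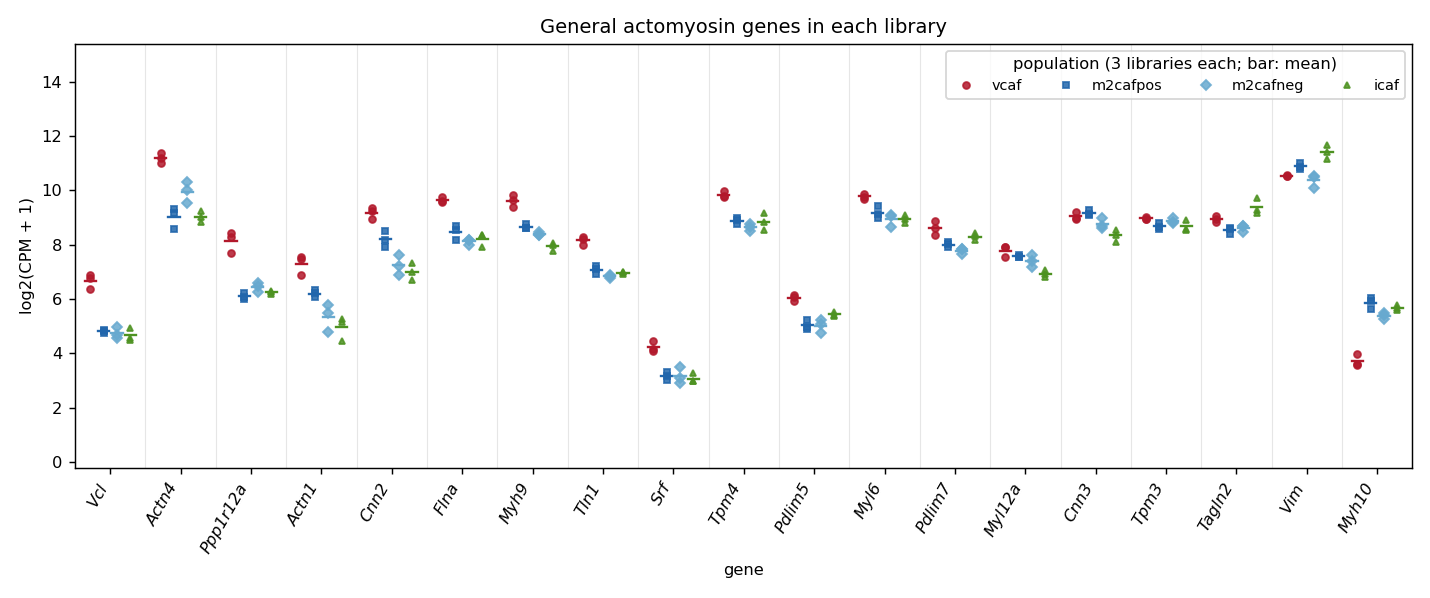
Log2(CPM + 1) of the 19 general actomyosin genes (x axis, ordered by the vcaf difference) in each of the 12 libraries; points are libraries, short bars are means of 3 libraries, colours and shapes mark the population. The populations lie closer together than for the muscle-type genes, Vim and Tagln2 are highest in icaf, and Myh10 is lowest in vcaf.

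**Figure D3:**
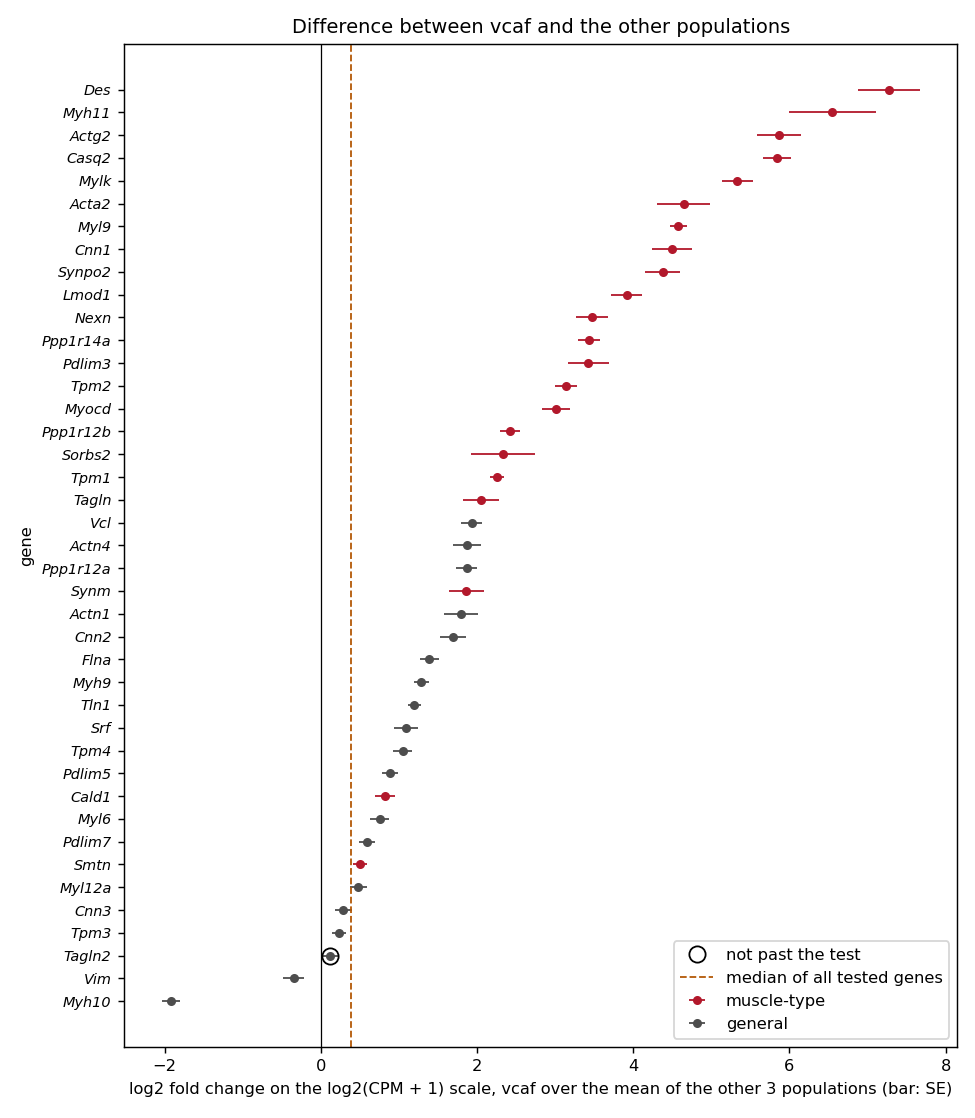
Log2 fold change (x axis, log2(CPM + 1) scale) of vcaf over the mean of the other 3 populations for the 41 members (y axis); bars are standard errors, colours mark the class, and the dashed line is the median of all genes tested, 0.38. The 22 muscle-type genes run from 0.50 (Smtn) to 7.27 (Des) and the 19 general genes from -1.92 (Myh10) to 1.93 (Vcl); Tagln2, ringed, did not pass the test.

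Summed over the class, the muscle-type genes made up 6732 ± 355 CPM in vcaf, against 1226 ± 98.6 in m2cafpos, 876 ± 144 in m2cafneg and 668 ± 83.7 in icaf (SD, n = 3 each). The general genes summed to 10903 ± 517 CPM in vcaf, against 6736 ± 502 in m2cafpos, 6037 ± 406 in m2cafneg and 7113 ± 1024 in icaf. Of the 41 members, 37 had their highest mean in vcaf, among them all 22 muscle-type genes. The exceptions were Myh10 and Cnn3, highest in m2cafpos, and Tagln2 and Vim, highest in icaf. The lowest mean was in icaf for 23 members, 15 of them muscle-type.

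Levels of different genes can be compared only per length, as CPM per kilobase of exon in GENCODE M21. On that scale Myl9 (999) and Acta2 (875) were the most abundant members in vcaf, ahead of Tpm4 (415), Actn4 (387) and Vim (313). In the other populations Vim came first, with 398 in m2cafpos, 281 in m2cafneg and 581 in icaf. Acta2 was 99.2 in m2cafpos, where it came 7th of the 41, 28.9 in m2cafneg and 18.05 in icaf. These levels use all annotated exons, so genes with long rarely used exons are understated.

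Shares within a family, on the same scale, show the make-up by isoform, which changed in some families more than in others. Myh11 made up 33.8% of the 3 myosin heavy chains in vcaf (29.7 to 36.2% over the libraries), against 0.386% in m2cafpos, 1.61% in m2cafneg and 1.22% in icaf. Myh10 was 1.26% in vcaf, against 14.9% in m2cafpos, 12.97% in m2cafneg and 20.2% in icaf, so that Myh9 remained the main heavy chain in all 4. Myl9 was 93.8% of the pair Myl9 and Myl12a in vcaf, against 45.04% in m2cafpos, 39.4% in m2cafneg and 55.7% in icaf.
Des was 26.9% of Des, Vim and Synm in vcaf and at most 0.584% in the mean of any other population. Among calponins, Cnn1 was 3.93% in vcaf, against 0.248% in m2cafneg, the highest of the others. Cnn2 was the main calponin in vcaf, at 55.1%, against 38.5% in m2cafpos, 30.0% in m2cafneg and 32.6% in icaf. Cnn3 was 40.9% in vcaf, and was the main one elsewhere, with 61.3% in m2cafpos, 69.8% in m2cafneg and 67.3% in icaf. Among tropomyosins, Tpm1 was 19.4% and Tpm2 11.98% in vcaf, against 7.53% and 1.97% in icaf, and Tpm4 was the main form throughout. The phosphatase targeting subunits changed little. Ppp1r12a was 91.5% of the pair with Ppp1r12b in vcaf, against 95.1% in m2cafpos, 95.1% in m2cafneg and 93.3% in icaf. Over the libraries, Ppp1r12b was 7.32 to 10.5% in vcaf and 5.39 to 8.19% in icaf, which overlap. All these shares are ratios within a library and show unequal change only.

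**Figure D4:**
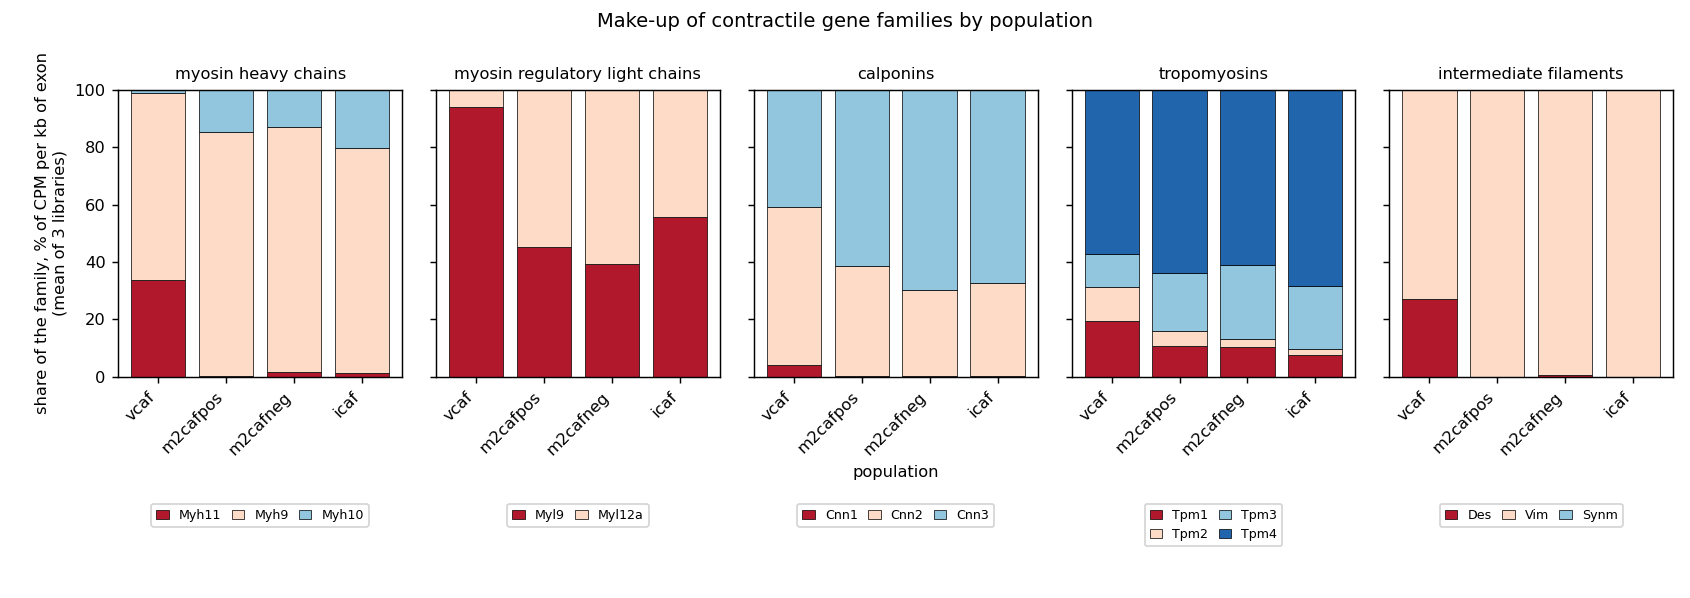
Share of each member in its gene family (y axis, % of CPM per kilobase of exon, mean of 3 libraries) in the 4 populations (x axis); each panel is a family and each colour a gene. In vcaf, Myh11 takes 33.8% of heavy chains, Myl9 93.8% of the pair with Myl12a and Des 26.9% of intermediate filaments (all dark red). Myh11 and Des take far less in the other populations. Colours follow the order within a family, so the muscle-type genes Tpm2 and Synm are not dark red.

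Set against each other population in turn, vcaf held its muscle-type difference with few exceptions. Against m2cafpos, 21 muscle-type genes were higher and Cald1 did not pass (0.38 ± 0.16; limma, adjusted p = 0.0542; 0.0388 with mouse as a block), while 15 general genes were higher and 1, Myh10, lower, against 55.5% and 12.4% of all genes tested. With the block, Vim was also lower in vcaf than in m2cafpos (-0.34; limma, adjusted p = 0.0418). Under median-of-ratios scaling, 19 muscle-type genes were higher, the general genes split into 9 higher and 4 lower, and all genes into 22.9% higher and 23.2% lower. The Acta2 difference from m2cafpos, 3.18 ± 0.42 (limma, adjusted p = 4.83e-05), was 1.94 (adjusted p = 0.0743) with the luminal epithelial level in the model, which differs between these populations.

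Against m2cafneg, 21 muscle-type genes were higher in vcaf, and 14 general genes were higher and 1, Myh10, lower, against 26.6% and 11.3% of all genes tested (9.87% and 15.6% under median-of-ratios scaling, with 20 muscle-type and 13 general genes higher). Sorbs2 did not pass (0.82 ± 0.50; limma, adjusted p = 0.207; 0.0337 with mouse as a block), and neither did Tagln2, Cnn3, Tpm3 and Vim. With the block, Tagln2 (adjusted p = 0.0265) and Cnn3 (adjusted p = 0.0214) were called higher in the same limma model. Against icaf, all 22 muscle-type genes and 16 general genes were higher in vcaf, and Myh10, Vim and Tagln2 were lower, against 46.1% and 13.9% of all genes tested (24.4% and 24.2% under median-of-ratios scaling, with 22 muscle-type and 12 general genes higher). The largest differences were those of Des (7.95 ± 0.48 against m2cafpos, 6.49 ± 0.48 against m2cafneg and 7.37 ± 0.48 against icaf). Mylk differed most from icaf, at 6.84 ± 0.24, against 4.76 ± 0.24 from m2cafpos and 4.40 ± 0.24 from m2cafneg. These 3 comparisons share the vcaf libraries.

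Among the other 3 populations, m2cafpos was first set against m2cafneg, and the muscle-type genes split, with a median of -0.05. In m2cafpos, 5 muscle-type genes were higher (Acta2, Tagln, Tpm2, Cald1 and Myl9) and 4 lower (Sorbs2, Des, Synm and Lmod1), and 13 did not pass. Of the general genes 5 were higher (Cnn2, Actn1, Vim, Myh10 and Cnn3) and Actn4 was lower. Of all genes tested, 3.51% were called higher and 22.6% lower in m2cafpos, with a median of -0.23; under median-of-ratios scaling the shares were 8.31% and 8.53%, with 7 muscle-type genes higher and 3 lower, and 12 general genes higher and 1 lower. Acta2 was 1.89 ± 0.42 higher (limma, adjusted p = 0.00863), Tagln 1.43 ± 0.28 (adjusted p = 0.00499) and Tpm2 0.97 ± 0.17 (adjusted p = 0.00301). In all 3 genes every m2cafpos library lay above every m2cafneg library, as in 7.09% of all genes tested.

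Cnn2 was 0.97 ± 0.21 higher in m2cafpos than in m2cafneg (limma, adjusted p = 0.00747), Cald1 0.56 ± 0.16 (adjusted p = 0.0256) and Myl9 0.48 ± 0.13 (adjusted p = 0.0199). Flna was called higher with mouse as a block (0.34; limma, adjusted p = 0.0224) and not without it (adjusted p = 0.111). Among the 13 muscle-type genes that did not pass, Myh11 was at -0.78 ± 0.69, Cnn1 at 0.11 ± 0.31, Actg2 at 0.47 ± 0.34 and Myocd at -0.08 ± 0.22. Nexn, at 0.67 ± 0.25 (limma, adjusted p = 0.0678), was called higher under median-of-ratios scaling and with a pseudocount of 0.25 CPM. Tpm1, at 0.26 ± 0.11 (limma, adjusted p = 0.0944), was called higher under median-of-ratios scaling. No alternative called any of the 13 lower. The pericyte marker sum was 155, 195 and 221 CPM in m2cafpos and 214, 209 and 582 in m2cafneg. These ranges overlapped, and of the 10 markers 1 was called higher, 1 lower and 8 did not pass; the part of pericyte transcripts in the Acta2 difference was not tested.

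The 5 members lower in m2cafpos differed in how their values changed with the epithelial level in the model or without single libraries. Sorbs2 (-2.37 ± 0.50; limma, adjusted p = 0.00683) and Actn4 (-0.94 ± 0.22; adjusted p = 0.0102) were -0.03 and -0.11 with the luminal epithelial level in the model. Des (-1.46 ± 0.48; limma, adjusted p = 0.042) was -0.75 (adjusted p = 0.107) without the m2cafneg library of mouse 31, the one rich in Acta1 and Rgs5, and it lost its call on leaving out any of 10 libraries. Lmod1 (-1.31 ± 0.24; adjusted p = 0.00399) and Synm (-1.35 ± 0.28; adjusted p = 0.0062) stayed past the same limma test on leaving out any single library, and were -0.86 (adjusted p = 0.31) and -1.61 (adjusted p = 0.136) with the luminal epithelial level in the model. With the epithelial level in the model, 1 muscle-type gene and 0 general genes were still called higher in m2cafpos, and so few of all genes (0.336% higher, 0.783% lower) that the model separates little; Acta2 was then 2.93 (adjusted p = 0.0551).

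Counts in this comparison changed on leaving out single libraries. Without m2cafpos of mouse 27 or m2cafneg of mouse 30, 3 muscle-type genes were higher in m2cafpos. Without m2cafpos of mouse 27 or of mouse 31, 1 general gene was higher, without m2cafpos or m2cafneg of mouse 30 there were 3, and without m2cafneg of mouse 31 there were 2. The count over all 15456 genes fell as well, from 542 called higher with all libraries. It was 311, 360 and 361 without m2cafpos of mouse 27, 30 and 31. Without m2cafneg of mouse 30 and 31 it was 358 and 407. Acta2, Tagln and Tpm2 stayed past the test in each of these fits.

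Against icaf, m2cafpos had 9 muscle-type genes higher and 2 lower, and 5 general genes higher and 3 lower, against 8.86% and 15.0% of all genes tested and a median of -0.11 (11.5% and 9.75% under median-of-ratios scaling, with 9 muscle-type genes higher and 1 lower). Acta2 was 2.50 ± 0.42 higher in m2cafpos (limma, adjusted p = 0.000917), Mylk 2.08 ± 0.24 (adjusted p = 5.02e-05) and Tagln 1.80 ± 0.28 (adjusted p = 0.000493). Pdlim3 followed at 1.49 ± 0.32 and Tpm2 at 1.44 ± 0.17, and Nexn, Cald1, Tpm1 and Smtn were higher by 0.36 to 0.87. The general genes higher in m2cafpos were Actn1 (1.24 ± 0.27; limma, adjusted p = 0.00451), Cnn2 (1.20 ± 0.21; adjusted p = 0.00112), Cnn3, Myh9 and Myl12a.
Lower in m2cafpos than in icaf were Synm, Ppp1r12b, Tagln2, Vim and Pdlim5, by 0.40 to 0.96 on the log2 scale (fold changes of -0.96 to -0.40). Pdlim7 joined them with mouse as a block (-0.29; limma, adjusted p = 0.0366). Between these 2 populations, none of 16 luminal epithelial markers passed the test, and 1 of 10 myoepithelial markers tested did. The call of Acta2 held on leaving out any single library.

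Against icaf, m2cafneg had 7 muscle-type genes higher and 1 (Myl9) lower, and 4 general genes higher and 4 lower, against 20.9% and 8.77% of all genes tested and a median of 0.12 (16.5% and 13.5% under median-of-ratios scaling, where 1 general gene was higher). In the same comparison 15 of 16 luminal epithelial, 11 of 11 macrophage, 8 of 10 myoepithelial and 8 of 12 endothelial markers tested were called higher in m2cafneg. With the luminal epithelial level in the model, 1 muscle-type gene (Mylk, 1.93; limma, adjusted p = 0.0225) and 0 general genes were still called higher, against 1.40% of all genes, and with the myoepithelial level the counts were again 1 and 0, against 1.16%. Without these terms, Mylk was 2.44 ± 0.24 higher in m2cafneg (limma, adjusted p = 2.49e-05), Pdlim3 1.75 ± 0.32 (adjusted p = 0.00163) and Lmod1 1.37 ± 0.24 (adjusted p = 0.00138). Acta2 was at 0.60 ± 0.42 (limma, adjusted p = 0.313) and Tagln at 0.37 ± 0.28 (adjusted p = 0.344). Mylk and Pdlim3 were thus higher than icaf in both m2caf populations, and so, by less, were Tpm1, Smtn, Cnn3, Myh9 and Myl12a. With all libraries, Acta2 and Tagln were called higher than icaf in m2cafpos alone, where the direct comparison with m2cafneg also passed. Without the m2cafneg library of mouse 30, Acta2 (1.13; limma, adjusted p = 0.0307) and Tagln (0.73; adjusted p = 0.0325) were called higher than icaf in m2cafneg too.
Sorbs2 was 2.16 ± 0.50 higher in m2cafneg (limma, adjusted p = 0.00649) and Actn4 0.93 ± 0.22 (adjusted p = 0.00732), and with the luminal epithelial level in the model they were -0.20 and 0.09. That level (mean log2) was 7.01 to 7.95 in m2cafneg and 4.43 to 5.92 in icaf, so the model separates little here too. Casq2 was 0.88 ± 0.22 higher in m2cafneg (limma, adjusted p = 0.0106), at 0.653 to 1.42 CPM in m2cafneg against 0.0393 to 0.119 in icaf. The icaf library of mouse 30 was under its 3 reads (0.0590 CPM), and at such levels the fold change depends on the pseudocount. With 0.25 CPM, Casq2 was called higher than icaf in m2cafpos too (1.10, limma, adjusted p = 0.0446). It was also called there with edgeR's quasi-likelihood test on recovered reads (2.57, adjusted p = 0.0131). Vim was lower in m2cafneg, with a log2 fold change of -1.04 ± 0.16 (limma, adjusted p = 0.000573), as were Tagln2, Pdlim7 and Pdlim5. Tpm2 passed with mouse as a block (0.47; limma, adjusted p = 0.00851) and not without it (adjusted p = 0.0557). The general count of 4 was 2 without m2cafneg of mouse 27 or of mouse 31 and 1 without icaf of mouse 30. The last 3 comparisons share their libraries in pairs.

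**Figure D5:**
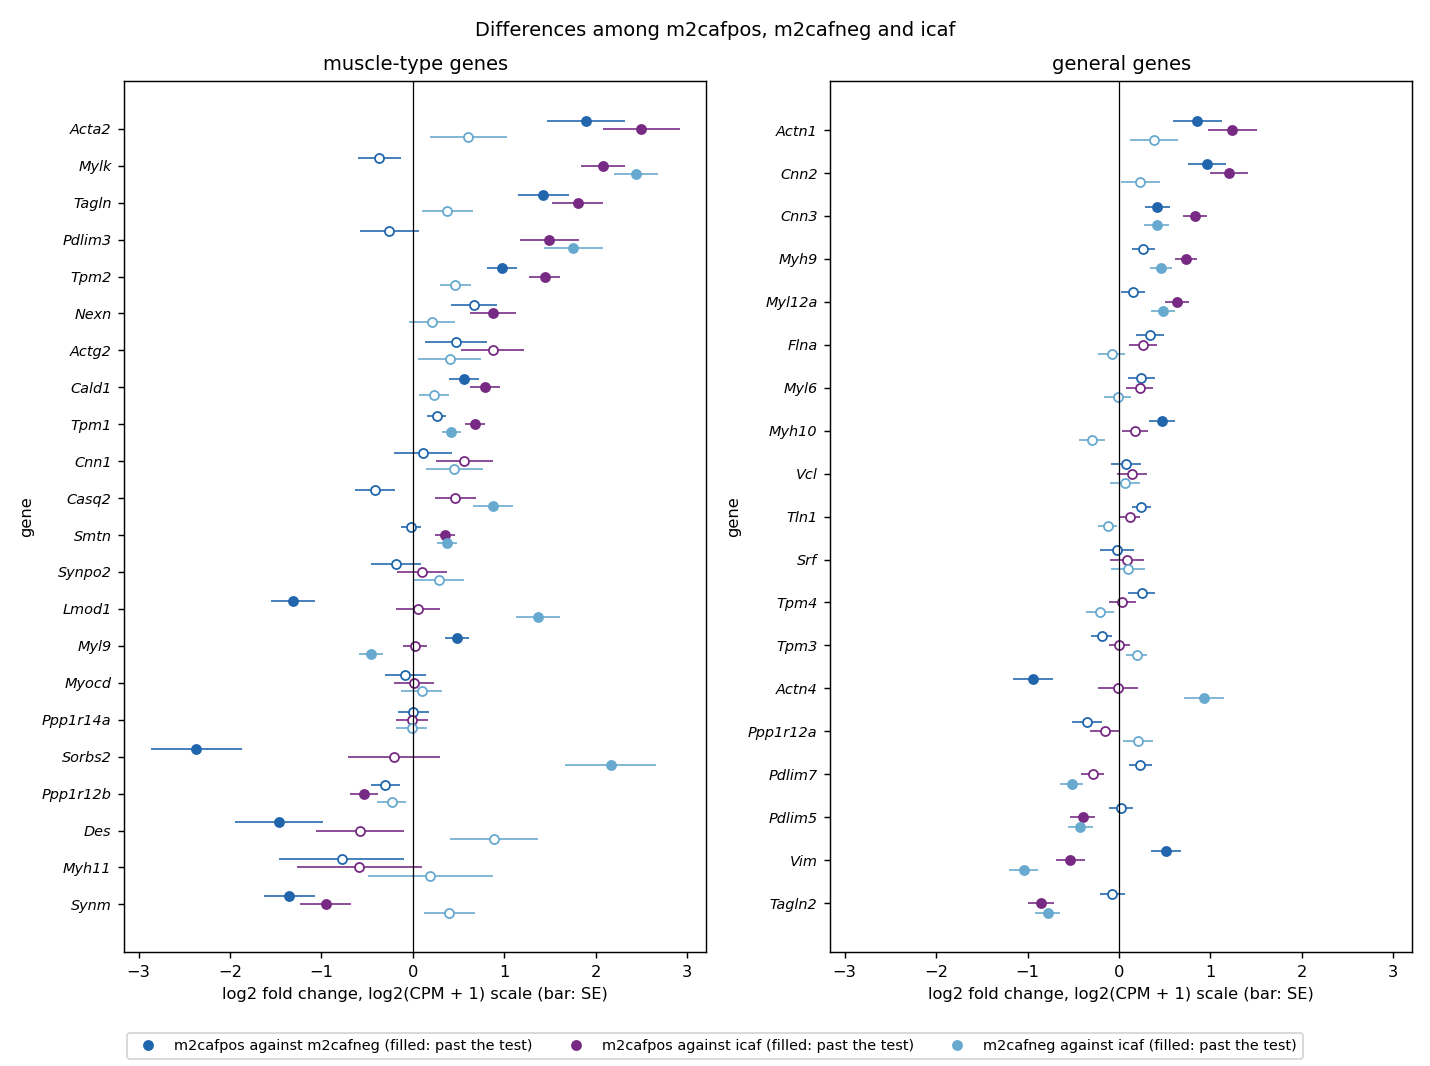
Log2 fold change (x axis, log2(CPM + 1) scale) of the 22 muscle-type (left) and 19 general (right) genes (y axis) in the 3 comparisons among m2cafpos, m2cafneg and icaf; filled points passed the test and bars are standard errors. Acta2, Tagln and Tpm2 are higher in m2cafpos than in both others, while Mylk and Pdlim3 are higher in both m2caf populations than in icaf. By less, so are Tpm1, Smtn, Cnn3, Myh9 and Myl12a.

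The pathway around the members was covered by 4 further lists. Of 11 SRF cofactors and smooth muscle transcription genes, 7 were higher in vcaf than in the mean of the others and 4 were lower, against 53.3% and 14.2% of all genes tested, the median being 0.65. A higher count so near the share of all genes is no result about the list. Mef2c was 3.09 ± 0.23 higher, Csrp1 2.29 ± 0.18 and Mrtfa 0.65 ± 0.08 (limma, adjusted p = 2.7e-07, 4.6e-07 and 2.7e-05). Fhl1, a LIM protein of muscle, was lower, with 28.3, 50.3 and 41.7 CPM in vcaf, against 93.1, 174.5 and 115.7 in m2cafpos, 98.0, 162.3 and 82.9 in m2cafneg, and 414, 440 and 404 in icaf (-2.16 ± 0.22). Gata6 (-1.86), Fhl2 (-0.76) and Csrp2 (-0.37) were also lower.

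Of 20 focal adhesion and dense plaque genes, 15 were higher in vcaf and 3 were lower, against the same 53.3% and 14.2% of all genes, the median being 1.28. Itga7, the laminin-binding integrin subunit of muscle, had 679.7, 562.8 and 514.5 CPM in vcaf, against 1.46 to 8.21 CPM in the other 9 libraries (6.99 ± 0.29; limma, adjusted p = 1.7e-09). Vasp (2.22 ± 0.13), Tns1 (1.74 ± 0.10) and Itgb1 (1.18 ± 0.09) were the next by p-value, and Itga5, Zyx and Svil were lower. Of 14 actin and filament dynamics genes tested, 9 were higher and 3 were lower, against 53.3% and 14.2% of all genes, the median being 0.67; counts so near the shares of all genes are no result about the list.
Flnc, the filamin of striated muscle, was among the lower, at 2.90, 4.03 and 3.94 CPM in vcaf, against 55.0, 53.2 and 58.1 in m2cafpos, 40.9, 53.5 and 34.8 in m2cafneg, and 112.1, 147.3 and 76.4 in icaf (-3.81 ± 0.18; limma, adjusted p = 4.0e-09). Dstn, Cfl1 and Pfn1, which turn actin filaments over, were higher by 0.66 to 0.69. Of 11 smooth muscle calcium handling genes tested, 10 were higher and 1, Kcnma1, was lower (-1.15 ± 0.17), against 53.3% and 14.2% of all genes, the median being 1.175. Trpc6, a receptor-operated cation channel, had 189.2, 133.1 and 138.6 CPM in vcaf, against 0.218 to 1.22 CPM elsewhere (6.59 ± 0.18; limma, adjusted p = 9.4e-11). Kcnmb1, the smooth muscle beta subunit of the channel whose pore Kcnma1 encodes, was 4.30 ± 0.21 higher, Jph2, a junctophilin, 3.46 ± 0.17, and Stim1 0.97 ± 0.10. The medians of the 4 lists were 0.65 to 1.28, against 0.38 for all genes and 3.45 for the muscle-type members. The lowest, 0.65 and 0.67, belong to the lists of SRF cofactors and of filament dynamics, whose higher counts were near the share of all genes.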

How the data were processed

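The authors deposited 1 table of CPM (counts scaled to a common library total) per gene and library, which names 12 libraries of 4 populations from 3 mice. Per the labels' protocols, RNA was taken from sorted cells with a column kit and sequenced on a NovaSeq; per the submitters' processing notes, bcl2fastq, DRAGEN and mm10 were used. Not given in the sources used here: versions, counting tool, strand handling, annotation and library kit. The table's 55774 lines held 287 repeated identifiers, none with differing values, and left 55487 genes. Every CPM value was a whole multiple of 1 read (100% within 0.001 reads), so read totals of 43898839 to 55363203 could be recovered.

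The 15456 genes at 1 CPM or more in 3 or more libraries were tested on log2(CPM + 1) with limma 3.58.1 (R 4.3.3; trended variance, 8 residual degrees of freedom, 1 model over 12 libraries, two-sided), with Benjamini-Hochberg adjustment over all kept genes within each of 7 comparisons and a threshold of 0.05. Scripts were tested on simulated data. The 12 samples were grouped by their titles, and the title 27_vacf was read as vcaf of mouse 27. Members, classes and lists were chosen with earlier results of these data known. Muscle-type genes were given in every library; general genes were named where they passed the test with a log2 fold change of at least 1 in vcaf or among the other populations; up to 4 genes a further list were taken by p-value. Genes named beyond these (Kcnma1, Gata6, Fhl2, Csrp2, Itga5, Zyx and Svil, and the remaining general members) were chosen after their values were seen. One further gene list is not reported here.

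The labels' mouse numbers pair the libraries: deviations from the population means correlated by 0.293 (median of 18 pairs, 0.0843 to 0.452) within a mouse. Between mice the median was -0.149 (36 pairs). This is no separate evidence of pairing, because deviations from a population mean cancel out over its 3 libraries. Mouse as a block, other scalings, filters, pseudocounts, epithelial marker levels as a covariate, edgeR 4.0.16 on the recovered reads and leaving out each library were the alternatives; the myoepithelial covariate was chosen after seeing the data. Positions are from GENCODE M21 (GRCm38), promoters from RefSeq (GRCm38.p6).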

Additional observations from a re-analysis of the deposited data

How the results depend on the processing

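Of 287 member comparisons, 204 were called. None of these was lost with mouse as a block or with a filter of 5 CPM, 1 was lost with a pseudocount of 0.25 CPM and 3 with edgeR's quasi-likelihood test on recovered reads, 22 without a filter, 27 under each of median-of-ratios and TMM scaling, 51 with the luminal epithelial covariate and 61 with the myoepithelial covariate. Direction turned under median-of-ratios (then TMM) scaling for Cnn3 (-0.13, -0.12) and Tpm3 (-0.18, -0.17) in vcaf against the mean of the others. It also turned for Tagln2 (-0.14, -0.12), Tpm3 (-0.26, -0.24) and Smtn (-0.16, -0.15) in vcaf against m2cafpos. Against icaf it turned for Tpm3 (-0.12, -0.11) and Pdlim7 (-0.096, -0.083). Both scalings divided the vcaf libraries by larger factors (1.21 to 1.28) than the other libraries (0.849 to 1.10). Sorbs2 in m2cafneg against icaf was -0.20 with the luminal covariate. The cause of these changes was not tested.

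The count of general genes lower in vcaf than in the mean of the others, 2, was 1 without a filter and with either covariate, and 1 to 2 on leaving out each library. Against m2cafpos it was 1, and 4 under median-of-ratios scaling, 3 under TMM scaling and 2 with the mouse block. Muscle-type genes higher in m2cafpos than in m2cafneg, 5, numbered 3 without a filter, 1 with the luminal and 0 with the myoepithelial covariate, 3 when members with muscle and non-muscle splice forms were left out, and 3 to 6 on leaving out each library. General genes in that comparison, 5, numbered 1 without a filter, 12 under each scaling, 0 with either covariate, and 1 to 5 on leaving out each library. Over all genes in that comparison, 386 of 36199 were called higher without a filter, against 542 of 15456 with it. Muscle-type genes higher in m2cafpos than in icaf, 9, numbered 4 without the splice-form members. Muscle-type genes higher in m2cafneg than in icaf, 7, numbered 1 with either covariate and 4 without the splice-form members; general genes, 4, numbered 1 under each scaling, 0 with either covariate and 1 to 4 on leaving out each library.

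The mouse block changed no call beyond those given with the comparisons. The luminal covariate also took most calls of all genes in m2cafpos against m2cafneg, to 0.336% higher and 0.783% lower. Values near 0.0542 to 0.0683 CPM, 3 reads a library, limit what can be said of Myocd and Actg2 outside vcaf and of Casq2 in icaf.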

Other observations

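Palld, palladin, an actin-bundling protein of stress fibres and dense bodies, was among the few genes of the filament lists that were lower in vcaf, and was chosen after its values were seen. It had 162.9, 231.4 and 114.1 CPM in vcaf, against 642, 540.7 and 504.4 in m2cafpos, 525.3, 400.5 and 303.1 in m2cafneg, and 203.3, 152.3 and 171.6 in icaf. The vcaf and icaf libraries overlapped and lay below all m2caf libraries, which is not the order of Acta2. Its log2 fold change in vcaf was -1.06 ± 0.20 (limma, adjusted p = 0.00058).

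The genes that overlap Tagln on the opposite strand had their own values. Pcsk7, a proprotein convertase, had 70.4, 76.6 and 98.0 CPM in vcaf, against 43.1 to 72.8 CPM in the other 9 libraries. Gm48529 had 1.22, 0.850 and 0.921 CPM in vcaf, against 0.261 to 0.684 CPM in the others. The part of this overlap in the Tagln level was not tested. Myl12b, which overlaps Myl12a, had 3.63 to 5.74 CPM over all 12 libraries, and Ilk, a gene of most adherent cells, had 0.772 to 2.26 CPM.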
